A study of Saccharomyces cerevisiae with 51 samples.

Results

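Intergenic intervals between convergent genes are the stretches of DNA onto which the 3′ ends of a plus-strand gene on the left and a minus-strand gene on the right both point. The nuclear part of the deposited budding yeast annotation, in the version its authors called before, held 1670 of them among 6304 gaps between neighbouring genes (26.5%). They were found by sorting 7071 nuclear genes of every biotype by start and keeping each gap of 1 bp or more whose left neighbour was on the plus strand and right neighbour on the minus strand. The other gaps were 3040 between tandem genes, which point the same way, and 1594 between divergent genes, whose 5′ ends face each other.

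In a convergent pair, a pair of transcription units runs head-on. The interval between them can hold terminators and 3′ untranslated sequence but, as a rule, no promoter. A tandem interval can hold the terminator of the upstream gene and the promoter of the downstream gene. Where transcripts end was not measured here. In budding yeast, convergent intergenic regions are known as places where cohesin, the ring complex that holds sister chromatids together, accumulates along chromosome arms, away from its loading sites. Condensin, the related complex that compacts mitotic chromosomes, and the phosphorylation of histone H3 at serine 10 by the Aurora kinase Ipl1 act on the same chromosomes in mitosis.

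The study made 51 chromatin immunoprecipitation sequencing libraries from 7 strains labelled BY4741: ipl1-TetR-mCh, sgo1-TetR-mCh, sgo1 delta, H3-S10A, ipl1-321, cdc15-1 and wild type (WT), with 17 libraries each of input DNA, H3 and H3 phosphorylated at serine 10 (H3pS10). In all, 21 libraries came from cells given 1 nM beta-estradiol for 3 hours, 9 from cells kept at 37 °C for 90 min, and 21 from cells with neither. The 6 files used here hold chromosome lengths, gene records and bins, with no value for any library, so nothing below is a level of H3pS10 or H3 and the depth of the libraries is unknown. Every value below is an exact coordinate or count from the before annotation, unless the after version is named, without replicates, and no test was applied.

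Convergent intervals were shorter than tandem ones. The median convergent interval measured 226 bp (quartiles 137 and 349 bp), and the median tandem interval 378 bp (quartiles 258 and 576 bp), a difference of -152 bp. The 90th percentile was 583.5 bp for convergent and 965.2 bp for tandem intervals. The 2 strands gave like tandem medians, 387 bp between plus-strand genes and 367.5 bp between minus-strand genes. Divergent intervals, which hold the promoters of both neighbours, had a median of 477 bp. The ends of all 6664 protein-coding nuclear genes lay 0 or 3 bp past the last coding base, and no such gene started before its first coding base. At the 1512 convergent intervals with a protein-coding gene on both sides, the length therefore runs between coding ends. A tandem gap between such genes runs from a coding end to a coding start. The ends of transcripts are not marked, so how much untranslated sequence lies inside a gap is unknown here.

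The order of the medians was the opposite beside protein-coding genes that had no match in the NCBI R64 gene table used here. Such a gene flanked 168 convergent intervals, with a median of 336 bp, and 294 tandem intervals, with a median of 264 bp. At all other intervals the medians were 219.5 bp for convergent and 384 bp for tandem intervals.

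The excess of short gaps was concentrated below 200 bp. Of the convergent intervals 723 (43.3%) were shorter than 200 bp, against 384 of the tandem intervals (12.6%). Shorter than 100 bp were 214 convergent (12.8%) and 110 tandem intervals (3.62%). Read the other way, convergent intervals made up 57.7% of the 371 gaps under 100 bp and 56.9% of the 894 gaps from 100 bp to under 200 bp, beside 26.5% of all gaps. In the class from 200 bp to under 300 bp they were 28.4% of 1375 gaps, and from 500 bp to under 1000 bp 11.3% of 1361. At 1000 bp or more there were 70 convergent (4.19%) and 282 tandem intervals (9.28%). All convergent intervals together covered 543257 bp, 4.50% of the nuclear genome and 17.5% of the DNA in gaps, against 1540244 bp, 12.8% and 49.7% for tandem intervals.

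**Figure D1:**
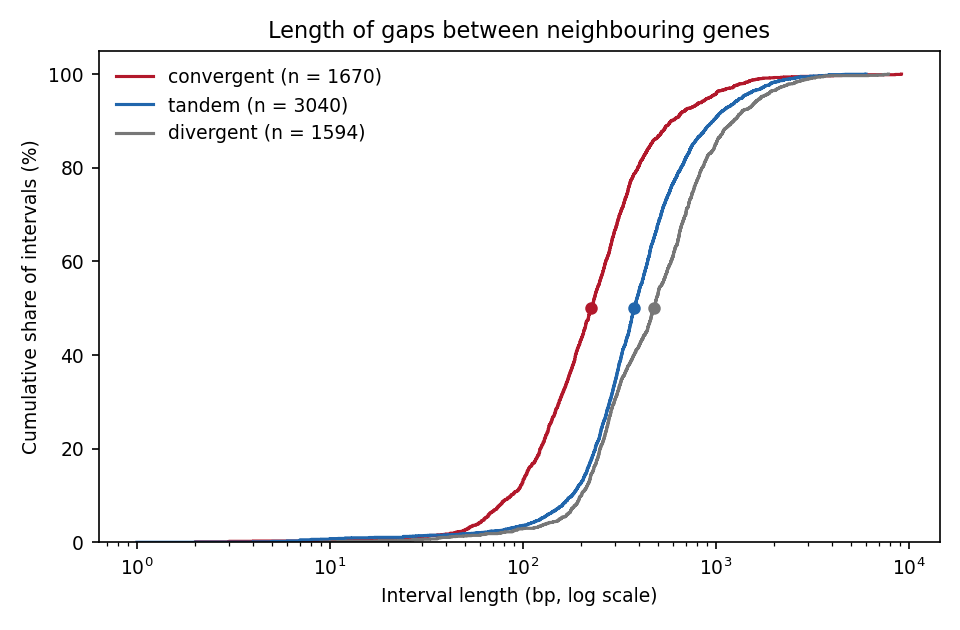
Cumulative share of intervals (%) against length (bp, log scale) for convergent (red, n = 1670), tandem (blue, n = 3040) and divergent (grey, n = 1594) gaps; dots mark the medians of 226, 378 and 477 bp. The convergent curve lies left of the tandem curve from below 100 bp to above 1000 bp.

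The shortest convergent intervals left almost nothing between the genes. The 5 shortest measured 2, 2, 3, 3 and 4 bp. On chromosome XI, the alanine tRNA gene tA(AGC)K2 and YKR040C were separated by 2 bp, at 518061 to 518062. On chromosome XIV, LSM7, which encodes a subunit of the Lsm RNA-binding ring, and YNL146C-A were also separated by 2 bp, at 351384 to 351385. SIF2, a gene of the Set3 histone deacetylase complex, ended 3 bp from YBR103C-A on chromosome II (449317 to 449319). PHM8, which encodes a lysophosphatidic acid phosphatase, and KRE29, a gene of the Smc5-Smc6 complex, ended 3 bp apart on chromosome V (226855 to 226857). YHR028W-A and YHI9 ended 4 bp apart on chromosome VIII (167673 to 167676). In 4 of these 5 pairs a flank was a tRNA gene or a gene known here by its systematic name alone, and PHM8 with KRE29 was the exception. In all, 42 convergent intervals were under 50 bp, which was 2.51% of them, against 56 tandem intervals (1.84%).

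The 1 bp rule leaves out neighbours that touch or overlap. Among genes adjacent in start order there were 1908 convergent pairs, of which 235 overlapped (12.3%) with a median overlap of 298 bp. Of 3243 tandem pairs 178 overlapped (5.49%), and of 1904 divergent pairs 310 (16.3%). These counts include the 675 protein-coding genes with no match in the R64 gene table, whose part in the overlaps is not given here. Convergent and divergent pairs must alternate along a chromosome, so their near-equal totals of 1908 and 1904 follow from arithmetic.

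The longest convergent intervals lay mostly near chromosome ends. The longest, 9139 bp on chromosome VIII (528620 to 537758), separated FLO5, a cell-wall flocculin gene, from YHR212C and ended 24885 bp from the chromosome end. Chromosome I held the next 3. YAR053W and YAR060C were 8493 bp apart (208664 to 217156), SWH1, an oxysterol-binding protein gene, and YAR047C were 5281 bp apart (196186 to 201466), and YAL067W-A and SEO1, a putative permease gene, were 4527 bp apart (2708 to 7234). The fifth, 4494 bp between YLR256W-A and the alanine tRNA gene tA(AGC)L on chromosome XII (652440 to 656933), was 421244 bp from an end. Of the 10 longest, 8 lay within 30 kb of a chromosome end. The exceptions were this interval on chromosome XII and the one between the arms of chromosome IV, described below. The latter ranked 6 in the before version and 156 in the after version.

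Length changed steeply over the last 30 kb of the chromosomes for both kinds of gap. Within 10 kb of an end the median was 890 bp for 35 convergent and 907 bp for 60 tandem intervals. From 10 to 30 kb it was 526 bp for 79 convergent and 580 bp for 131 tandem intervals. From 30 to 100 kb it was 187 bp for 306 convergent and 346 bp for 551 tandem intervals, and beyond 100 kb 224 bp for 1250 and 376 bp for 2298. The difference in medians between convergent and tandem intervals was -17 bp in the outermost 10 kb and -152 bp beyond 100 kb. Of the 70 convergent intervals of 1000 bp or more, 37 (52.9%) lay within 30 kb of an end, where 6.83% of all convergent intervals lie. For tandem intervals of that length it was 70 of 282 (24.8%), with 6.28% of all tandem intervals there. The number of gaps did not shift in the same way, since convergent gaps were 26.5% of the 132 gaps in the outermost 10 kb and 26.2% of the 4762 gaps beyond 100 kb.

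**Figure D2:**
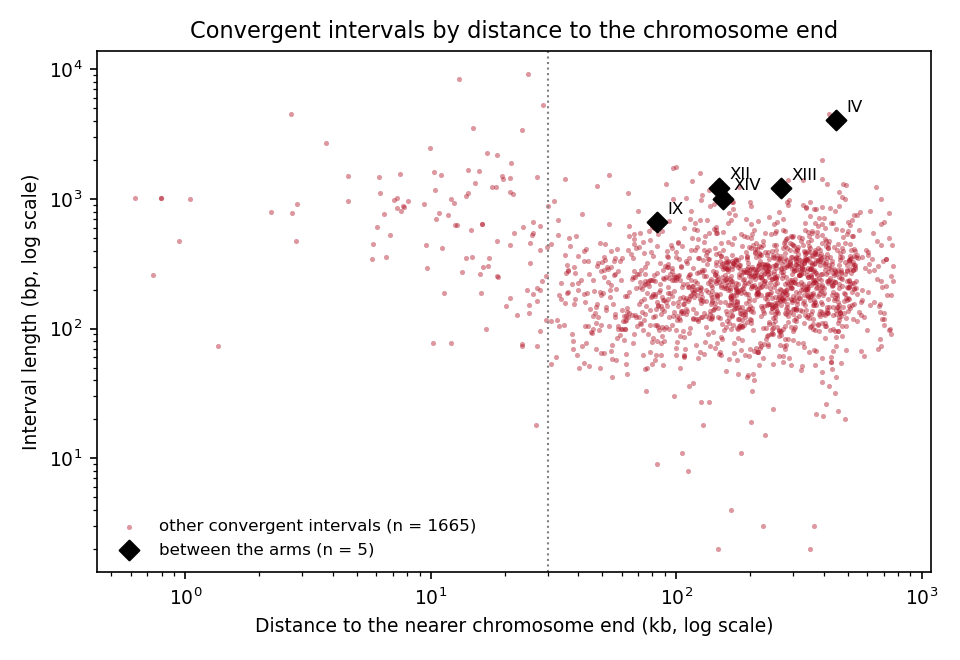
Length (bp, log scale) of each convergent interval against its distance to the nearer chromosome end (kb, log scale); the dotted line marks 30 kb and black diamonds the 5 convergent intervals between chromosome arms, labelled by chromosome. Long intervals gather left of the line, and the 5 diamonds, from 661 to 4048 bp in the before version, lie above most of the points to its right.

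Of the 16 intervals between the left and right arms, 5 were convergent, and these were long for their kind. The arms were read from the L or R in the systematic names of genes, and no centromere position was used. RMD1 and NTH1, the neutral trehalase gene, were 4048 bp apart on chromosome IV (449277 to 453324), and 625 bp apart in the after version. Of the 1670 convergent intervals, this was the only one whose length differed between the versions. DNM1, which encodes a dynamin-related GTPase of mitochondrial fission, and YLR001C were 1225 bp apart on chromosome XII (150164 to 151388). YPT7, a vacuolar Rab GTPase gene, and CDC5, the polo kinase gene, were 1218 bp apart on chromosome XIII (267801 to 269018). DOM34, a ribosome rescue gene, and CIT1, which encodes mitochondrial citrate synthase, were 1005 bp apart on chromosome XIV (628617 to 629621). YIL001W and SGN1 were 661 bp apart on chromosome IX (355482 to 356142).

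In the before version, all 5 exceeded the 90th percentile of convergent lengths, 583.5 bp. They ranked 6, 47, 49, 69 and 137 of 1670 in length for chromosomes IV, XII, XIII, XIV and IX. On chromosomes IV and XIII the interval between the arms was the longest convergent one of the chromosome, among 219 and 124. In the after version that of chromosome IV ranked 17 of the 219. The 9 tandem intervals between arms ran from 630 to 1660 bp with a median of 875 bp, and 3 of the 9 exceeded the tandem 90th percentile of 965.2 bp. Of the 5 convergent ones, 4 lie within the tandem range of 630 to 1660 bp, and that of chromosome IV lies above it in the before version. In the after version its 625 bp lie below that range, and its rank is 156 of 1670.

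Convergent intervals were spread along the arms much as tandem ones were. Their median distance to the interval between the arms, from nearest edge to nearest edge, was 212.5 kb for convergent and 209.3 kb for tandem intervals. The quartiles were 88.5 and 388.3 kb for convergent and 91.2 and 378.7 kb for tandem intervals. As a fraction of the arm, from 0 at the interval between the arms to 1 at the chromosome end, the medians were 0.482 and 0.479 for convergent and tandem intervals. By chromosome, the convergent median distance was shorter than the tandem one on 9 and longer on 7 of the 16.

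Near the interval between the arms the mix of gaps differed little from that elsewhere. Within 10 kb, convergent intervals were 57 of 193 gaps (29.5%), beside 26.5% of all gaps, and tandem intervals 88 (45.6%), beside 48.2%. Within 30 kb the numbers were 156 convergent (28.0%) and 251 tandem (45.1%) of 557. Without the intervals between the arms themselves, 52 of 177 gaps within 10 kb were convergent (29.4%). In the bands beyond 30 kb the convergent share ran from 25.8% to 27.3%. These shares stand without a test. The length contrast held at this end of the arms too, with medians of 263.5 bp for convergent and 404 bp for tandem intervals within 10 kb, the intervals between the arms left out.

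**Figure D3:**
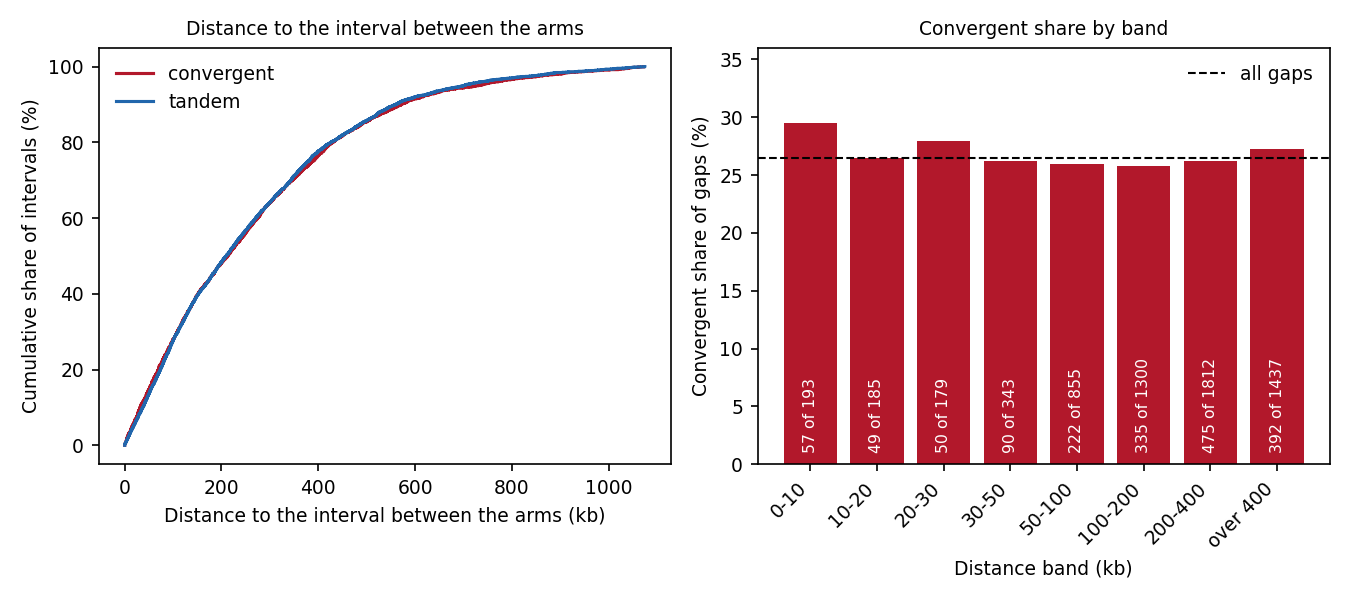
Left, cumulative share of convergent (red) and tandem (blue) intervals (%) against distance to the interval between the arms (kb); right, convergent share of all gaps (%) by distance band (kb), with the counts in the bars and the share over all gaps, 26.5%, as a dashed line. The left curves run close together, and the bars lie between 25.8% and 29.5%.

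Every arm had a convergent interval close to its inner end. Over the 32 arms, the nearest one outside the interval between the arms lay 315 to 12224 bp away, with a median of 3736.5 bp, and the nearest tandem interval lay 255 to 11931 bp away, with a median of 2516 bp. The convergent one was the nearer on 12 of the 32 arms, and it lay within 5 kb on 22 and within 10 kb on 30. The nearest of all, at 315 bp, was found on 2 chromosomes. On the left of chromosome II it separated HTB2, an H2B gene, from ECM15 by 265 bp (236888 to 237152). On the right of chromosome III it separated YCR001W from CDC10, a septin gene, by 1380 bp (116000 to 117379). The farthest was the 73 bp between MMM1, a gene of the contact site between endoplasmic reticulum and mitochondria, and SPO75 on the left of chromosome XII, at 12224 bp. On the right arm of chromosome XII the nearest, between SSL1 and SSK1, was 10046 bp away, so the convergent interval between the arms of this chromosome had no other within 10 kb.

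The number of convergent intervals followed chromosome length. It ran from 35 on chromosome I and 36 on chromosome VI to 219 on chromosome IV. Per 100 kb, chromosomes held 12.9 (XI) to 15.2 (I) convergent intervals, against 17.8 (I) to 30.3 (III) tandem intervals. As a share of a chromosome's gaps, convergent intervals were 33.0% on chromosome I and 23.9% on chromosome III, and tandem intervals 38.7% and 54.5% on the same chromosomes. The other 14 lay between 24.8% (XIII) and 27.9% (XVI) convergent.

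On each of the 16 chromosomes the convergent median was shorter than the tandem median. Convergent medians ran from 169.5 bp on chromosome VI to 257 bp on chromosome V, and tandem medians from 317.5 bp on chromosome IX to 440 bp on chromosome V, so the ranges do not overlap. The difference was smallest on chromosome I, -106 bp, and largest on chromosome VI, -197.5 bp. Chromosome I stood apart in its upper quartile, 869.5 bp for its 35 convergent and 507 bp for its 41 tandem intervals. Convergent intervals covered 13.4% of that chromosome, and 18301 of their 30898 bp came from the 3 long ones named above. On the other chromosomes they covered between 3.45% (XIII) and 6.14% (III).

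**Figure D4:**
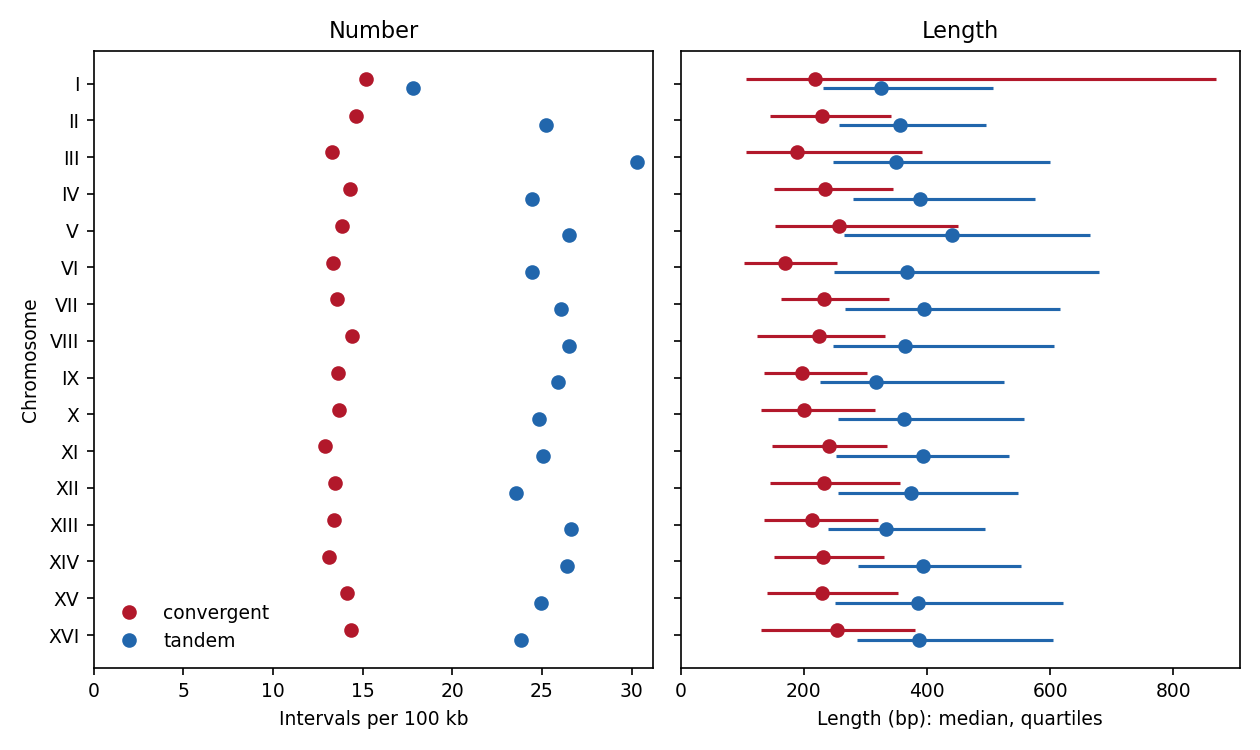
Left, convergent (red) and tandem (blue) intervals per 100 kb on each chromosome; right, their median length (bp, dots) with quartiles (bars). All 16 convergent medians, 169.5 to 257 bp, lie below all 16 tandem medians, 317.5 to 440 bp.

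The same genes had short convergent gaps at the 3′ end and longer gaps at the 5′ end. Of 3043 genes with a convergent gap downstream and a gap of 1 bp or more upstream, 2434 (80.0%) had the shorter one downstream, with medians of 224 bp downstream and 414 bp upstream. Where the upstream gap was tandem, it was 1129 of 1460 genes (77.3%), and where it was divergent, 1305 of 1583 (82.4%). Among genes with a tandem gap downstream, 1514 of 2717 (55.7%) had the shorter one downstream. With a tandem gap upstream it was 686 of 1372 of these genes, and with a divergent gap upstream 828 of 1345 (61.6%). These pairs of gaps share genes along the chromosome and are not independent.

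Convergent intervals were less dense than tandem ones, at 13.8 against 25.2 per 100 kb of the nuclear genome. Tandem gaps pool both strands, however. Gaps between plus-strand genes numbered 1546 (24.5% of all gaps) and those between minus-strand genes 1494 (23.7%), each below the 1670 convergent intervals (26.5%). Consecutive convergent intervals on a chromosome were separated by a median of 5756.5 bp (quartiles 3519.5 and 8958.25 bp), with a median of 4 genes in between. Of 1654 such stretches 1312 (79.3%) were under 10 kb, and 427 (25.8%) held 2 genes. The longest stretch, 31250 bp with 16 genes, ran on chromosome XIV from the interval between SPS19 and PSY2 to that between UBP10 and MRPL19. The stretch with the most genes, 20 in 23828 bp, ran on chromosome III from RBK1 and PHO87 to THR4 and CTR86. In 368 cases (22.0%) both flanking genes had a divergent gap at their other end, in 716 (42.9%) 1 had a divergent and the other a tandem gap, and in 307 (18.4%) both had a tandem gap. In the remaining cases a flank had no gap of 1 bp or more at its other end.

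Most flanks were protein-coding genes. Both were protein-coding at 1512 convergent intervals (90.5%), with a median of 229 bp, and at 2691 tandem intervals (88.5%), with a median of 374 bp. A tRNA gene flanked 114 convergent intervals, with a median of 228.5 bp, and 254 tandem intervals, with a median of 497 bp. A snoRNA gene, with no tRNA gene on the other side, flanked 27 convergent intervals, with a median of 150 bp, and 64 tandem intervals, with a median of 312 bp. The convergent median was the shorter in each class. Of the nuclear genes, 3340 of 7071 (47.2%) faced a convergent interval with the 3′ end. By biotype it was 3173 of 6664 protein-coding genes (47.6%), 119 of 275 tRNA genes (43.3%) and 29 of 77 snoRNA genes (37.7%).

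Of 59 genes in 9 lists, which cover mitotic chromosome machinery, histones and silencing, 33 faced a convergent interval (55.9%), against 47.2% of all nuclear genes. The 32 intervals they faced had a median of 179.5 bp, against 226 bp over all convergent intervals. By list it was 4 of 9 cohesin and loader genes, 5 of 5 condensin genes, 2 of 4 genes of the chromosomal passenger complex, 3 of 6 of the shugoshin, Bub1 and PP2A list, 6 of 10 histone genes, 4 of 8 sirtuin and silencing genes, 4 of 7 mitotic exit genes, 3 of 5 spindle checkpoint genes and 2 of 5 of the CBF3 and CENP-A loading list. A gene's place beside such an interval says nothing about where its protein binds.

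All 5 condensin subunit genes ended at a convergent interval, against 47.2% of all nuclear genes. This was the highest share among the 9 small lists, which were chosen with earlier results known, and it was not tested. SMC4, an ATPase subunit gene, was 355 bp from CSF1, and SMC2, the other ATPase subunit gene, was 174 bp from MET10. YCG1 and YCS4, which encode HEAT-repeat subunits, were 375 bp from YSP2 and 110 bp from YLR271W. BRN1, the kleisin gene, was 78 bp from YBL096C. The 5 lie on chromosomes XII, VI, IV, XII and II, between 67310 bp (SMC2) and 670014 bp (YCG1) from the interval between the arms. Among cohesin genes, MCD1, the kleisin, ended 583 bp from NHP10, and the loader genes SCC2 and SCC4 ended 133 bp from SAS4 and 101 bp from LSM5. ECO1, the cohesin acetyltransferase gene, and CDC14, the mitotic exit phosphatase gene, faced each other across 115 bp on chromosome VI (208298 to 208412), the 1 interval with a listed gene on both sides. SGO1, the shugoshin gene that is deleted or fused in some of the strains, ended 131 bp from CDC21, which encodes thymidylate synthase, on chromosome XV (466544 to 466674).

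Core histone genes come in divergent pairs, so both members can end at a convergent interval. HTA2 and HTB2 on chromosome II did, 276 bp from UTP20 and 265 bp from ECM15. HHT2 and HHF2, H3 and H4 genes on chromosome XIV, did as well, 288 bp from SIW14 and 166 bp from KTR5. In the other pairs 1 member did: HHT1 ended 370 bp from IPP1, the inorganic pyrophosphatase gene, and HTB1 814 bp from CRF1. Their partners had tandem gaps at the 3′ end, of 1163 bp between FLR1 and HHF1 and of 557 bp between HTA1 and ADK1.

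Of all 1670 convergent intervals, 156 (9.34%) lay within 30 kb of the interval between the arms or were that interval. Of the 32 faced by listed genes it was 8. They were those of CDC5 (0 bp away), HTB2 (315 bp), HTA2 (2074 bp), MCD1 (2310 bp), HHT1 (17801 bp), TPD3, the scaffold subunit gene of PP2A (24264 bp), MAD3, a checkpoint gene (26434 bp), and HST2, a sirtuin gene (29920 bp). Their lengths ran from 116 bp, between TPD3 and NTG1, to 1218 bp, between YPT7 and CDC5. HST2 faced SWI1, a gene of the SWI/SNF remodeller, across 851 bp, and MAD3 faced CCT3, a chaperonin gene, across 330 bp. HTB2, HTA2 and HHT1 lie beside the same interval between arms, that of chromosome II. The contrast with all convergent intervals was not tested, and the lists were chosen with earlier results known.

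Between the versions, a single convergent interval changed in length. All 1670 had the same flanking genes after and before, and 1519 of them identical coordinates. RMD1 and NTH1 were 625 bp apart in the after version (449277 to 449901) and 4048 bp apart in the before version. By length this interval ranked 156 of 1670 after and 6 before, and 17 and 1 among the 219 of chromosome IV. The other 150 right-arm intervals of this chromosome were shifted by -3423 bp after relative to before, with equal lengths, and its 68 left-arm intervals kept theirs. Convergent intervals of chromosome IV summed to 66297 bp after and 69720 bp before, and their median was 235 bp in both.

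The convergent intervals beside it kept their lengths in both versions. On the left, MCD1 and NHP10, which encodes an INO80 remodeller subunit, were 583 bp apart (446384 to 446966), with 2310 bp to the interval between the arms. Farther left, PTC1, a protein phosphatase gene, and MED2, a Mediator gene, were 259 bp apart (440755 to 441013). On the right, RAD57, a recombinational repair gene, and MAF1, a repressor gene of RNA polymerase III, were 252 bp apart, at 456266 to 456517 after and 459689 to 459940 before.

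**Figure D5:**
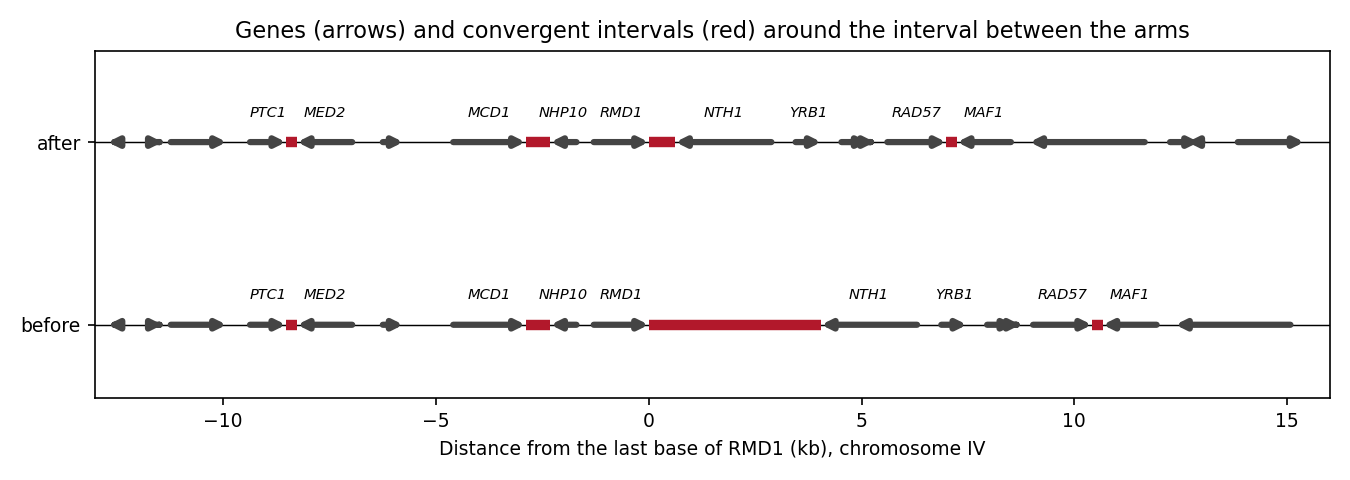
Genes (arrows, pointing 5′ to 3′) and convergent intervals (red) on chromosome IV in the after (top) and before (bottom) versions, against distance (kb) from the last base of RMD1. The interval between RMD1 and NTH1 is 625 bp long after and 4048 bp before, and the other red intervals keep their lengths.

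Most convergent intervals were small against the authors' bins. In the before grid the bin width ran from 461 bp (chromosome I) to 3071 bp (chromosome IV), and the median convergent interval took 13.1% of the bin width of its chromosome, against 22.0% for tandem intervals. In the before grid, 1369 convergent intervals (82.0%) lay wholly inside 1 bin, and so did 2115 tandem intervals (69.6%). Of the 8000 nuclear bins, 2021 (25.3%) touched a convergent interval. On chromosome IV, 21 of 219 convergent intervals crossed a bin boundary in the after grid and 17 in the before grid. Of the 218 intervals there outside the changed one, 64 (29.4%) had another bin number after than before by their midpoint, 12 on the left arm and 52 on the right. The interval of MCD1 and NHP10 was in bin 146 in both grids, and that of RAD57 and MAF1 in bin 149 after and 150 before.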

How the data were processed

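No file used holds a value for any of the 51 libraries. Reads were aligned with Bowtie2 2.2.9, per the submitters' processing notes, to a build not given in the sources used here. Deposited by the authors are coordinates and lengths in bp, with no score. Gene extents ran from the lowest start to the highest end of a gene's records (34945 in the before version), and positions are 1-based. The left neighbour of a gap was the gene with the highest end so far. The gap search was tested on simulated data, with 0 mismatches over 14462 gaps. Genes were matched to the R64 gene table by locus tag or gene ID (6006 of 7071). Members and lists were chosen with earlier results of these data known. Named are the genes beside the 5 longest and 5 shortest intervals, those between or nearest the arms, those changed between versions, those at extremes, and listed genes that face each other or lie within 30 kb of the arms; further list members were chosen after their values were seen. Python 3.11.15, pandas 2.3.3, numpy 2.4.6, scipy 1.17.1 and matplotlib 3.10.9 were used. No test was made, since 1 annotation has no replicates. Alternatives changed the biotypes, gene set, gene extent, version, left neighbour, size limits and distance measure.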

Additional observations from a re-analysis of the deposited data

How the results depend on the processing

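The difference in median length of -152 bp kept its sign under all 10 other settings, from -170 to -148 bp. For this difference itself 9 of the 10 were added after seeing the data, all but the last 2 below having been planned for the medians it is made of. Of 75 recomputed values, 64 stayed within a fixed yardstick, which was 1.5-fold for counts, the range over chromosomes for the difference and, for medians and shares, a 95% binomial interval used only as a measure of size, since exact counts have no sampling error. Some of the 75 values could hardly move, so the tally is no measure of robustness. In the after version only 1 convergent length differed. For the medians within each chromosome, the yardstick was the range of those same differences. Medians for convergent and tandem intervals were 236 and 388 bp with protein-coding genes only and 242 and 390 bp with coding records only. The tandem median was 401 bp with genes of the reference table only and 390 bp with its coding genes plus all other biotypes. The share of convergent intervals of 1000 bp or more, 4.19%, was 6.24% with protein-coding genes, 6.29% with coding records, 5.47% with reference table genes, 3.13% with its coding genes plus all other biotypes, and 2.12% without the outer 30 kb of chromosomes. The last 2 settings were chosen after seeing the data for every result. The convergent median distance exceeded the tandem one under each setting, by 1.34 to 10.8 kb. The settings share most of their convergent intervals, so they are not separate evidence. By chromosome, the convergent median distance was the shorter on 9 and the longer on 7 of the 16. No match in the reference table was found for 675 protein-coding genes, which flanked 168 convergent (10.1%) and 294 tandem intervals (9.67%), and in this class the convergent median was the longer, 336 bp against 264 bp. No paired analysis was possible because the deposited tables list coordinates alone, and the settings planned for H3pS10 were not run for that reason.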
